A study of Homo sapiens with 5 samples.

Results

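Chromatin sites were examined at which wild type ENL, its Y78A mutant, β-hydroxybutyrylated H3K9 and acetylated H3K9 all had a called peak and crotonylated H3K9 had none. A site was a peak of the wild type ENL list on chromosomes 1 to 22, X and Y that shared at least 1 bp with a peak in each of the ENL_Y78A, H3K9bhb and H3K9ac lists and with no peak of the H3K9cr list. Of 11394 wild type ENL peaks, 2329 (20.4%, 95% interval 19.7 to 21.2) met this rule and are called kept sites here. They were chosen by the overlaps themselves, so their presence in 4 lists, and the strength of their peaks there, is a description and not a result.

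The study profiled HepG2 cells, an established human hepatocellular carcinoma line, by CUT&Tag, in which a transposase tethered to an antibody cuts and tags nearby DNA. It asked whether ENL sits on chromatin carrying H3K9bhb. There were 5 libraries, 1 per group: ENL_wt and ENL_Y78A, H3K9bhb, H3K9ac (acetylation) and H3K9cr (crotonylation). The design text names cells that stably expressed Flag-tagged ENL, profiled with an antibody to Flag or to H3K9bhb. The source cells of the libraries for H3K9ac and H3K9cr, the level of endogenous ENL and the number of clones are not given in the sources consulted. The peaks inside the H3K9ac list carry names that begin with ENL1, and its group was taken from its label, so the H3K9ac values rest on that label. No group had a second library, so no value has a replicate check, and every interval covers counting error only.

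ENL, encoded by MLLT1, belongs to the elongation complexes that help paused RNA polymerase II move into the gene body. Its YEATS domain holds an acylated lysine of the histone H3 tail in an open-ended aromatic channel, which takes acetyl groups and bulkier acyl groups. Tyrosine 78 lines that channel, and the Y78A change replaces it with alanine. β-Hydroxybutyrylation is a histone acylation tied to ketone body levels, and the liver is the main source of ketone bodies.

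Most kept sites lay at the starts of genes, and 5 of their promoters are shown first because they carry the 3 motifs that were more frequent in promoters of kept sites than in H3K9ac promoters without wild type ENL. Promoters of lost sites held the ZBTB33 motif at a like share, and promoters of sites in all 5 lists the NFY motif, as given below. For the NRF1 motif no difference from sites in all 5 lists was detected. Each line gives the 200 bases before the annotated transcription start, 5′ to 3′ on the strand of the gene, from RefSeq on GRCh38.p14. Capitals mark the motif match. It is CCAATCA, the box bound by NFY, in TGFBR2 (chr3:30606401-30606600, plus strand) and PPP1R10 (chr6:30617244-30617443, minus strand). It is GCATGCGC, the NRF1 element, in HEXIM1 (chr17:45148275-45148474, plus strand) and ACTR1A (chr10:102502713-102502912, minus strand). It is CTCGCGAG, the palindrome bound by ZBTB33, in HNRNPK (chr9:83980616-83980815, minus strand). In TGFBR2 and ACTR1A the match reads in the opposite direction.
TGFBR2: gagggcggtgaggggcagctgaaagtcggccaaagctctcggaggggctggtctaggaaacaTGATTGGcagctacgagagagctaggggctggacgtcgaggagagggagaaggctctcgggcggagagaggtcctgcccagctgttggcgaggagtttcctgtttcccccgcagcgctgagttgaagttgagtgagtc
PPP1R10: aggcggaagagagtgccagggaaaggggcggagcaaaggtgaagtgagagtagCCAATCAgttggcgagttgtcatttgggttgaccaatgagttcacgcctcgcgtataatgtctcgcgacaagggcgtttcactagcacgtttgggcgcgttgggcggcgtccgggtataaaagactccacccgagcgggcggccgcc
HEXIM1: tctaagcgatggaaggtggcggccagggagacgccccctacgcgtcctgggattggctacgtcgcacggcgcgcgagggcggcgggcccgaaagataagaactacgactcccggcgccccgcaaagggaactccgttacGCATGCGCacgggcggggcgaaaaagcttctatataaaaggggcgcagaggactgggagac
ACTR1A: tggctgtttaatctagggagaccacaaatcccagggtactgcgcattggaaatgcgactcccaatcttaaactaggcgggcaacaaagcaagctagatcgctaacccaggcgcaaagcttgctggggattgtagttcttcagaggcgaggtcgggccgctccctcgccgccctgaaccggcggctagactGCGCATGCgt
HNRNPK: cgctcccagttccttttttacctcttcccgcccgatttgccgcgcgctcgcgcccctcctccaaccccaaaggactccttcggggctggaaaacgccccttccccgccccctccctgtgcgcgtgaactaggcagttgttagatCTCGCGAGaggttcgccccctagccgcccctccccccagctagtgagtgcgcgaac

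Positions are in bases from the start, negative before it. In TGFBR2, the type II receptor of TGF-β, the box lay at −138 to −132, and the wild type and Y78A summits lay at −105 and −113 and the H3K9bhb summit at −309. In PPP1R10, a targeting subunit of protein phosphatase 1, the box lay at −147 to −141, with the wild type and Y78A summits at −162 and −163 and the H3K9bhb summit at −402. HEXIM1, an inhibitor of the elongation kinase P-TEFb, had its NRF1 match at −61 to −54, both ENL summits at −9 and the H3K9bhb summit at −4. ACTR1A encodes a dynactin subunit. Its match lay at −10 to −3, and the wild type and Y78A summits lay at −165 and −110, with H3K9bhb at 382. HNRNPK encodes an RNA-binding protein of the spliceosome. Its palindrome lay at −56 to −49 and its ENL summits lay downstream of the start, at 172 and 150, with H3K9bhb at 83. The ENL summits were close to the marked letters in TGFBR2, PPP1R10 and HEXIM1 and farther from them in ACTR1A and HNRNPK.

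The lists differed in length and in threshold, which bears on every overlap. On these chromosomes there were 11394 wild type ENL, 5422 Y78A, 9176 H3K9bhb, 31493 H3K9ac and 3852 H3K9cr peaks, and the lowest −log10 q ran from 1.31 in H3K9ac to 2.05 in wild type ENL. Median summits held 21 to 33 fragments. Of all wild type ENL peaks, 42.9% were overlapped by Y78A, 59.8% by H3K9bhb, 78.9% by H3K9ac and 19.1% by H3K9cr, and 20.4% met the whole rule. The cell line label was checked with marker genes. An H3K9ac peak lay at the start of 27 of 40 genes for liver secreted proteins and of 3 of 39 genes of other tissues, against 56.0% of all coding genes. Wild type ENL had a peak at 12 of the former and 0 of the latter, against 28.7% of all.

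The kept sites made up 55.0% (53.5 to 56.5) of the 4236 wild type ENL peaks with H3K9bhb and H3K9ac but not H3K9cr, and 47.6% (46.2 to 49.0) of the 4892 wild type peaks with Y78A. They took in 43.6% of all Y78A peaks, 25.7% of H3K9bhb peaks and 7.65% of H3K9ac peaks. Nearly all matched a single peak in each list: 98.4% touched 1 Y78A peak, 98.7% touched 1 H3K9bhb peak and 96.2% touched 1 H3K9ac peak. Below they are set beside their nearest relatives. These are the 1907 sites on the same marks with no Y78A peak, called lost sites, and the 1429 sites with a peak in all 5 lists. The remaining 5729 wild type peaks form the rest.

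The values that the rule drew on are given as a description. In the wild type list the deposited fold, which is summit signal over the caller's background, had a median of 5.59 at kept sites (middle 50% of sites 4.75 to 6.57, range 2.19 to 18.8). The median wild type summit held 31 fragments and the median peak was 534 bp wide. In the other lists the median fold was 5.21 for Y78A, 4.90 for H3K9bhb and 3.57 for H3K9ac, and the median summit held 20, 25 and 51 fragments. The Y78A peaks were narrower, with a median of 356 bp, and the H3K9bhb peaks measured 431 bp. H3K9ac formed wide peaks at the same places, with a median of 962 bp. The lost sites were weaker in wild type ENL, with a median fold of 5.06 and 19 fragments, while the sites in all 5 lists were stronger, with 6.54 and 36.

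Peak strength therefore moves with the grouping. When all wild type peaks were ranked by their deposited p and divided into 4 equal strength groups, 50.8% of kept sites fell in the strongest group and 4.47% in the weakest. For lost sites these shares were 8.70% and 28.3%, and for sites in all 5 lists 71.7% and 2.52%. Comparisons with lost sites that are called below are therefore also given within strength groups, and the part of strength in them was not tested in any other way.

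At kept sites the Y78A summit usually held fewer fragments than the wild type summit, beyond the difference in background. The most frequent background in the Y78A list was 0.845 of that in the wild type list. After scaling by it, the Y78A summit held a median of 0.781 of the wild type fragments (middle 50% of sites 0.681 to 0.920). At 363 kept sites (15.6%) the scaled ratio was 1 or more. The ratio differed with the distance to the nearest gene start. It was 0.769 at the 1519 sites within 1 kb of a start and 0.789 at the 663 sites 1 to 100 kb away. At the 147 sites more than 100 kb away it was 1.01, and 76 of them (51.7%) were at 1 or more. The sites in all 5 lists showed the same order, with 0.779, 0.865 and 1.10. The rule required a called Y78A peak, so low ratios at weak sites could not enter, and these ratios carry no test. The part of mappability and copy number in them was not tested either.

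**Figure D1:**
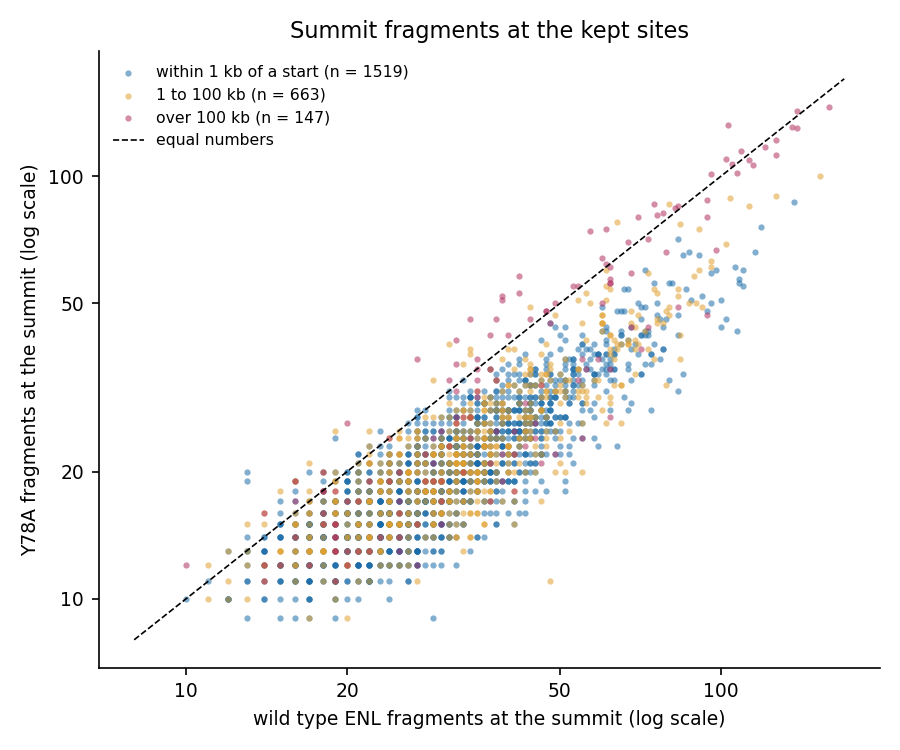
Each point is a kept site, with the fragments at its wild type ENL summit on the x axis and at its Y78A summit on the y axis, both on log scales and not scaled for background. Points are coloured by distance to the nearest gene start, and most lie below the dashed line of equal numbers, while 46 of the 147 sites over 100 kb from a start lie on or above it.

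Fragments at the wild type and Y78A summits rose and fell together across the 2329 sites, with a Spearman correlation of 0.837. It was 0.624 between wild type ENL and H3K9bhb and 0.301 between wild type ENL and H3K9ac. For the deposited folds the 3 values were 0.667, 0.712 and 0.533. All pairs share the local accessibility, mappability and copy number of each site, and the values carry no test.

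The Y78A and H3K9bhb summits lay closer to the wild type ENL summit than the H3K9ac summit did. The Y78A summit lay a median of 57 bp from the wild type summit (95% interval 54 to 62, middle 50% of sites 21 to 121 bp), and 68.9% of kept sites had them within 100 bp. For H3K9bhb the median was 58 bp and the share 69.3%. The H3K9ac summit lay a median of 122 bp away, and 44.5% were within 100 bp. In the wide H3K9ac peaks a summit has more room to move, and the part of peak width in this gap was not tested.

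Relative to the gene start, the wild type summit had a median position of −105 bp at the 1343 kept sites within 1 kb of a start of known strand (middle 50% of sites −193 to 33 bp). The median was −115 bp for Y78A and −119 bp for H3K9bhb, both upstream. For H3K9ac it was 13 bp, downstream of the start. The summit was past the start at 30.1% of these sites for wild type ENL, 30.6% for Y78A, 31.3% for H3K9bhb and 51.4% for H3K9ac. Site by site, the H3K9ac summit lay downstream of the wild type ENL summit at 877 of 1343 sites (65.3%), by a median shift of 59 bp. The Y78A and H3K9bhb summits had median shifts of −1 bp.

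**Figure D2:**
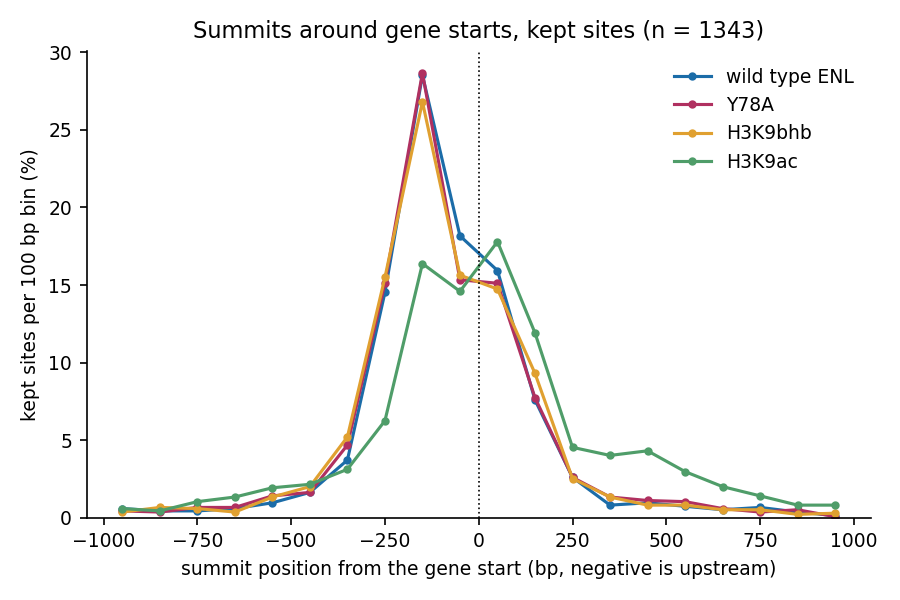
Share of the 1343 kept sites at starts of known strand whose summit falls in each 100 bp bin, by distance from the gene start, for wild type ENL, Y78A, H3K9bhb and H3K9ac. The first 3 lines rise together between 200 and 100 bp upstream, where 28.5% of the wild type summits lie, while the H3K9ac line is spread on both sides of the start.

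The wild type summit was past the start less often at kept than at lost sites, at 30.1% against 37.4%, a difference of −7.30 points (−11.1 to −3.50). Within the 4 strength groups, from weakest to strongest, the difference was 13.0, −3.29, −0.335 and −3.85 points, and each of these intervals held 0. The share itself fell with strength among the kept sites, from 53.8% through 36.1% and 34.1% to 24.6%. Against sites in all 5 lists the difference was 6.12 points (1.54 to 10.4), and within strength groups −3.30, 19.4, 1.56 and 2.66 points, each with an interval that held 0. The H3K9bhb summit was past the start at 31.3% of kept and 40.4% of lost sites, a difference of −9.12 points (−13.0 to −5.27). In the weakest group, with 52 kept sites, these shares were 55.8% and 40.5%, a difference of 15.2 points (0.648 to 28.98). In the groups between the weakest and the strongest the difference was −8.20 and −5.81 points, each with an interval that held 0. In the strongest group the shares were 27.4% and 37.9%, a difference of −10.5 points (−21.0 to −0.757). The intervals within strength groups were not adjusted for the number of comparisons.

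Kept sites were concentrated at gene starts. Of the 2329, 1519 (65.2%, 63.3 to 67.1) had the wild type summit within 1 kb of the start of a protein-coding gene. Where strand was not given, either end of the gene counted as a start throughout. The share was 64.6% at lost sites, a difference of 0.669 points (−2.21 to 3.56), and none was detected with the lists as deposited. Within the strength groups it was −9.60, −1.92, 0.610 and 4.04 points from weakest to strongest, each with an interval that held 0. When only the top 3852 peaks of each list were used, the share was lower at kept than at lost sites, by −16.6 points (−23.3 to −8.69). At the sites in all 5 lists the share was 40.4%, lower by 24.8 points (21.6 to 28.0). That difference kept its direction in each strength group, at 28.8, 39.3, 33.0 and 22.2 points from weakest to strongest, with every interval above 0. In the rest of the wild type peaks the share was 33.3%, lower by 31.9 points (29.6 to 34.2).

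**Figure D3:**
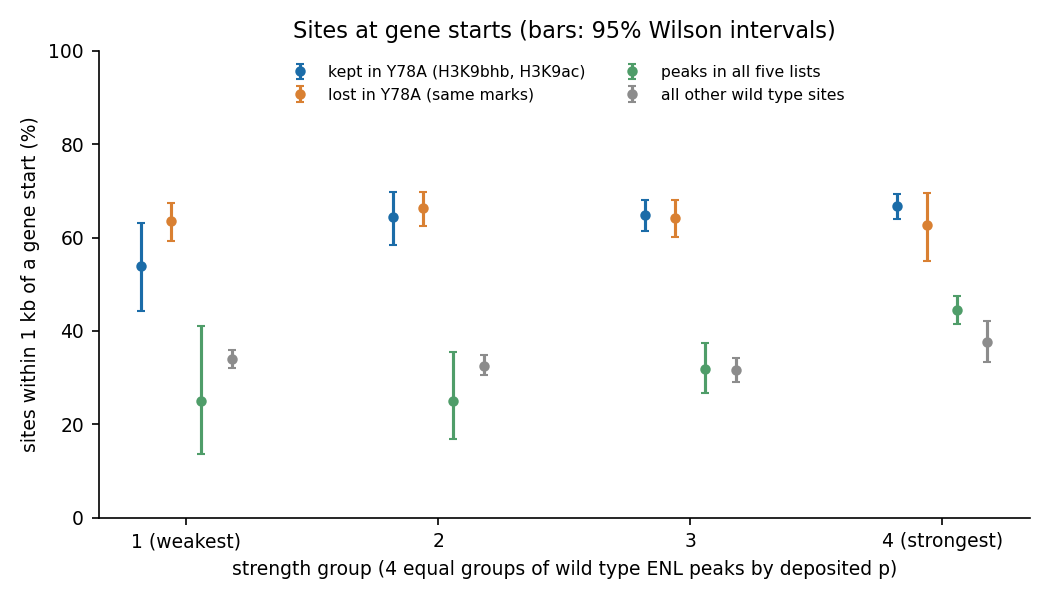
Share of sites whose wild type summit lies within 1 kb of a gene start (y axis, percent) in 4 equal groups of wild type ENL peaks ranked by deposited p (x axis, weakest to strongest), with 95% Wilson intervals. Kept and lost sites have overlapping intervals in the 4 groups, between 53.8% and 66.7% for kept sites, and sites in all 5 lists lie between 25% and 44.5%.

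Few kept sites lay far from genes: 147 (6.31%) were more than 100 kb from a start, against 4.98% of lost sites, 24.8% of sites in all 5 lists and 14.4% of the rest. The difference from sites in all 5 lists was −18.5 points (−20.9 to −16.0), and from the rest −8.12 points (−9.43 to −6.74). From lost sites it was 1.33 points (−0.0795 to 2.71). In between, 234 kept sites lay 1 to 10 kb and 429 lay 10 to 100 kb from a start. Of the 810 kept sites beyond 1 kb, 41.1% fell inside a protein-coding gene. This was less than for lost sites, at 51.5% (difference −10.4 points, −15.4 to −5.28), and more than for sites in all 5 lists, at 31.3% (difference 9.77 points, 5.15 to 14.3). Within strength groups the difference from lost sites was −11.1, −5.78, −11.4 and −6.42 points from weakest to strongest, and the interval left out 0 in the third alone (−20.3 to −2.30).

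Some of the 810 sites away from coding starts lay at other genes. An end of a lncRNA gene was within 1 kb at 121 of them (14.9%), against 12.6% of lost sites (difference 2.36 points, −1.19 to 5.84) and 7.51% of sites in all 5 lists (difference 7.43 points, 4.41 to 10.5). Small RNA genes accounted for few: 7 sites lay by a tRNA gene, 9 by an snRNA gene, 4 by a snoRNA gene and 9 by a miRNA gene. The snRNA sites included RNU1-1, RNU1-2, RNVU1-7, RNVU1-14 and RNVU1-31, which encode U1 or its variants, the RNA that marks the 5′ splice site. SNORD3A encodes U3, which processes ribosomal RNA. Its site had folds of 7.08 in wild type, 8.44 in Y78A, 4.60 in H3K9bhb and 3.62 in H3K9ac. SNORD3B-1, a further U3 copy, had 4.94, 6.55, 5.04 and 3.42. Of the 9 miRNA sites, 4 were copies of MIR3180, with wild type folds from 4.65 to 5.32. The copies of U1, U3 and MIR3180 are near-identical, so reads may be split between them and these positions are uncertain.

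At gene level, 1797 of 20037 protein-coding genes (8.97%) had a kept site within 1 kb of a start, out of 5748 (28.7%) with any wild type ENL peak there. They made up 31.3% (30.1 to 32.5) of the wild type ENL genes and 15.9% (15.2 to 16.5) of the 11225 genes with H3K9ac. Of the 1797, 28 also had a lost site, and 13 had a site found in all 5 lists. A peak belongs to a single class, so this needs 2 or more wild type peaks at a gene. How many genes had these was not counted, so the low numbers do not show that the gene sets are separate. In 29 genes there were 2 or more kept sites.

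Among kept sites at gene starts, those with the highest wild type −log10 p lay at genes of varied function. ARL6IP1, which shapes endoplasmic reticulum membranes, had its site at chr16:18801151-18802053. Its summits held 77 wild type, 46 Y78A, 47 H3K9bhb and 81 H3K9ac fragments, and the folds were 10.4, 8.18, 7.35 and 4.07. HNRNPA3, an RNA-binding protein, had 110, 60, 41 and 80 fragments in the same order at chr2:177212247-177213375. RNF43, a ubiquitin ligase that removes Wnt receptors from the cell surface, had 76, 47, 19 and 50 at chr17:58417439-58417938. Y78A fragments were fewer than wild type fragments at each of these 3 genes.

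GORASP2, a Golgi stacking protein, had wild type and Y78A folds of 9.01 and 7.11. ZNFX1, a helicase that senses viral RNA, had 137 wild type and 87 Y78A fragments, with folds of 4.56 and 5.49. TGFBR2 had 96 and 50 fragments, with folds of 6.27 and 8.91. In TGFBR2 and ZNFX1 the Y78A fold was above the wild type fold although the fragments were fewer; the fold is set against each list's own local background. The Y78A fold was above the wild type fold at 879 of the 2329 kept sites, counted without regard to their fragments. ENO1, a glycolytic enolase, had 110 and 55 fragments and folds of 5.04 and 5.02. PCM1, a centriolar satellite protein, had folds of 6.66 and 6.36, and SEC31A, a subunit of the COPII coat, had 6.82 and 5.11. NR0B2, the nuclear receptor SHP that represses bile acid synthesis, had 119 wild type and 76 Y78A fragments, with folds of 4.50 and 4.54.

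The highest Y78A folds at gene starts were found at GSK3B, RNF43, TLE4, HNRNPA0 and a pair of shared starts. GSK3B, a kinase that marks β-catenin for destruction, had a Y78A fold of 9.57 and a wild type fold of 7.25, with 45 and 48 fragments. TLE4, a co-repressor of Wnt and other targets, had 9.11 in Y78A and 9.80 in wild type, with 28 and 40 fragments. HNRNPA0, an RNA-binding protein, had 9.01 and 8.77. The start shared by KNTC1, a kinetochore protein, and RSRC2 had 9.03 and 7.81, and that of AGPAT1, an enzyme of phosphatidic acid synthesis, and RNF5 had 8.95 and 8.96.

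A few genes had several kept sites. SOD2, the mitochondrial superoxide dismutase, had 3 at its listed transcript starts, at chr6:159693182-159693876, chr6:159726864-159727994 and chr6:159761751-159762786. Their wild type summits held 42, 43 and 42 fragments and their Y78A summits 28, 38 and 37. The last of them is also the start of ACAT2, which makes acetoacetyl-CoA for sterol synthesis. SEC31A, JMJD1C and CCT6A, a chaperonin subunit, had 2 each. In JMJD1C, a demethylase family member, the pair held 57 and 21 wild type fragments and 28 and 16 Y78A fragments.

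Of the 6 strongest kept sites over 10 kb from a coding gene start, 4 had a higher wild type −log10 p than ARL6IP1. The 6 split by their Y78A level. The site nearest to ZNF33B, 749051 bp from it at chr10:41889327-41889702, held 139 wild type and 130 Y78A fragments. The site 168239 bp from CWH43 at chr4:49154203-49155071 held 159 and 146. The pair nearest to CCNYL1B on chromosome 16, 296187 and 317418 bp away, held 49 and 96 wild type and 50 and 101 Y78A fragments. The first of that pair had folds of 18.8 in wild type, 17.6 in Y78A, 19.5 in H3K9bhb and 12.1 in H3K9ac, which include the highest wild type and Y78A folds of all kept sites. At these 4 sites the Y78A fragments nearly equalled the wild type fragments. In H3K9bhb and H3K9ac the ZNF33B site held 87 and 65 fragments and the CWH43 site 129 and 99. The CCNYL1B pair held 48 and 93 in H3K9bhb and 38 and 58 in H3K9ac. The LTBP1 site also had high folds, at 16.9 in wild type, 11.3 in Y78A, 16.0 in H3K9bhb and 12.1 in H3K9ac. The part of mappability and copy number was not tested at any of the 6 sites. At LTBP1 and CHD2 the Y78A fragments were fewer. The site 30525 bp from LTBP1 at chr2:32916234-32916605 held 63 and 32, and the site 17739 bp from CHD2 held 84 and 37. The latter, at chr15:92882196-92882972, lay 258 bp from an end of CHASERR, a lncRNA gene known to restrain CHD2.

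The gene lists below were chosen with earlier results of these data in view, so they describe the kept sites and test nothing. Beside each share stands the 8.97% of all coding genes, although a kept site first needs a wild type ENL peak. Of the 5748 genes with a wild type ENL peak at a start, 31.3% had a kept site and 24.9% a lost site. The elongation and acylation machinery comes first. Of 36 genes for elongation complexes, 24 had a wild type ENL peak and 5 (13.9%) a kept site: HEXIM1, MEPCE, HEXIM2, AFF1 and CCNT1. HEXIM1, HEXIM2 and MEPCE belong to the 7SK particle that holds P-TEFb inactive, CCNT1 is the cyclin of P-TEFb and AFF1 a scaffold of the super elongation complex. HEXIM1 had 75 wild type and 56 Y78A fragments, MEPCE 61 and 41, HEXIM2 53 and 30, AFF1 28 and 16, and CCNT1 24 and 13. A further 4 genes of the list had a lost site and no kept site.

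Of 31 acylation enzymes and readers, 7 (22.6%) had a kept site. The writers were EP300, with 51 wild type and 27 Y78A fragments, KAT7 with 31 and 17, and KAT8 with 32 and 25. The deacylase was SIRT2, with 30 and 18. The readers were BRD2, with 50 and 23, and TAF1, with 23 and 17, and CDYL, which acts on crotonyl groups, had 19 and 13. A further 4 genes of the list had a lost site and no kept site. The 7 kept genes thus included writers, a remover and readers of acyl marks.

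Among 30 liver transcription factors 5 (16.7%) had a kept site. NR0B2 is given above. TBX3, a T-box repressor, had folds of 8.07 in wild type, 7.04 in Y78A, 5.94 in H3K9bhb and 2.45 in H3K9ac. ATF5 had 6.97, 4.81, 4.91 and 3.72, FOXA3 had 5.08, 6.87, 4.72 and 2.75, and CEBPB had 2.86, 2.97, 3.28 and 2.05. FOXA3 opens chromatin at liver genes and CEBPB drives the acute phase response. Of the 810 kept sites away from starts, 10 (1.23%) had a gene of this list as the nearest one, among them HNF4A and FOXA2, and so did 7 of 676 lost sites (1.04%).

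Of 40 genes for liver secreted proteins, 4 (10%) had a kept site and 27 had H3K9ac. APOB, the core protein of liver lipoproteins, had 65 wild type, 42 Y78A, 25 H3K9bhb and 51 H3K9ac fragments. C3, the central complement protein, had 62, 36, 22 and 59. F2, which encodes prothrombin, had 32, 23, 23 and 37, and APOA1, the main protein of HDL, had 36, 26, 28 and 55. The wild type folds of the 4 lay between 3.90 and 5.57, within the middle of the kept sites or below it.

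Metabolic genes varied. Of 40 genes for fatty acid oxidation and ketone bodies, 2 (5%) had a kept site and 7 had a lost site and no kept site. ACAA1, a thiolase of peroxisomal fatty acid oxidation, had 40 wild type, 28 Y78A, 34 H3K9bhb and 58 H3K9ac fragments. Of 30 genes for gluconeogenesis and fasting, 5 (16.7%) had a kept site. They included PC, pyruvate carboxylase, with folds of 9.21 in wild type and 7.84 in Y78A, and PCK2, the mitochondrial form of PEPCK, with 4.01 and 4.05. SESN1, a stress-induced regulator of mTORC1, had 6.48 and 6.49. TRIB3, a pseudokinase, had a kept site with 3.48 and 3.53 and was also the gene nearest to a lost site named below.

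Of 30 genes for cholesterol and lipid synthesis, 7 (23.3%) had a kept site. SREBF2, the transcription factor that raises sterol synthesis, had 55 wild type and 38 Y78A fragments, with folds of 6.26 and 8.44. IDI1, an isomerase of the isoprenoid pathway, had 70 and 38 fragments, and MSMO1, a sterol oxidase, had 33 and 15. ACAT2 had 42 and 37. A further 5 genes of the list had a lost site and no kept site. Both the regulator and enzymes it is known to control were among the 7.

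Splicing and stress response genes followed. Of 38 splicing factors, 14 (36.8%, 23.4 to 52.7) had a kept site, 2 had a lost site and no kept site, and all 38 had H3K9ac. HNRNPK had 65 wild type and 43 Y78A fragments, SRSF2 83 and 47, SON 52 and 30, and HNRNPU 64 and 23. Of 40 immediate early and stress response genes, 15 (37.5%, 24.2 to 53.0) had a kept site and 2 had a lost site and no kept site. XBP1 and DDIT3, factors of the unfolded protein response, had 77 and 78 wild type and 37 and 39 Y78A fragments. EGR1, a serum-induced zinc finger factor, had 49 and 30, and NFKBIA, the inhibitor of NF-κB, had 66 and 54.

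Of 41 translation factors, 11 (26.8%) had a kept site, among them EIF4A1, the cap-dependent helicase, with 98 wild type and 60 Y78A fragments. EIF4B, its cofactor, had 73 and 42, EIF1 had 96 and 59, and EIF2B4 had 53 and 35. Of 79 cytosolic ribosomal protein genes, 18 (22.8%) had a kept site, and RPS19, RPS12, RPLP0 and RPL9 held 59, 48, 60 and 53 wild type and 34, 34, 35 and 21 Y78A fragments. Of 42 cell cycle and replication genes, 9 (21.4%) had one. PCNA, the replication clamp, had 55 and 42, AURKA, a mitotic kinase, had 42 and 22, MCM3, a helicase subunit, had 28 and 19, and GMNN, a licensing inhibitor, had 33 and 24. Of 37 proteasome genes, 6 (16.2%) had one, including PSMB1 with 37 and 20 and ADRM1 with 61 and 43. Of the 39 genes of other tissues, 0 had one (95% interval 0% to 8.97%, counting error only).

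**Figure D4:**
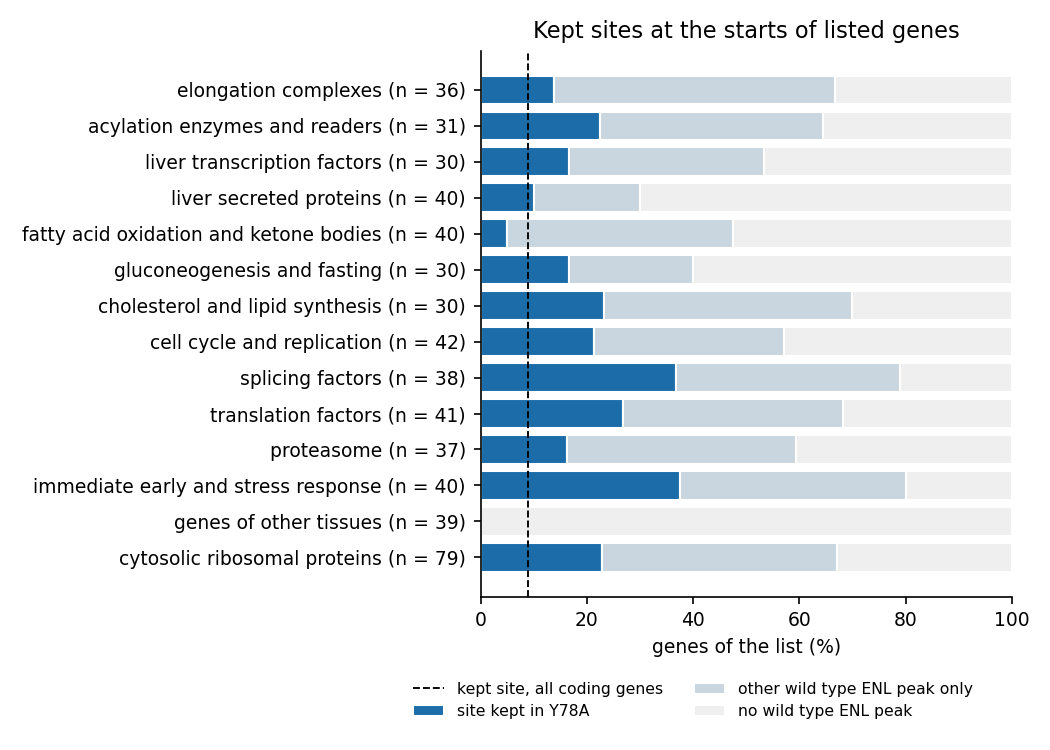
Share of the genes of each list (x axis, percent of listed genes) with a kept site at a start, with another wild type ENL peak only, and with none. The dashed line marks the 8.97% of all coding genes with a kept site, and the share runs from 0% in genes of other tissues to 37.5% in immediate early and stress response genes.

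The lists also differed in how many genes had any wild type ENL peak, which the rule needs first. It was 32 of 40 immediate early and stress response genes, 30 of 38 splicing factors, 53 of 79 ribosomal protein genes and 24 of 36 elongation genes, against 19 of 40 genes for fatty acid oxidation and ketone bodies and 12 of 40 for liver secreted proteins. In the same order, a kept site was found at 15 of 32, 14 of 30, 18 of 53, 5 of 24, 2 of 19 and 4 of 12 of them. For acylation enzymes and readers it was found at 7 of 20 genes with a wild type ENL peak. In the same terms it was 5 of 16 for liver transcription factors and 5 of 12 for gluconeogenesis and fasting. It was 7 of 21 for cholesterol and lipid synthesis and 9 of 24 for cell cycle and replication. For translation factors it was 11 of 28, and for the proteasome 6 of 22. Among all genes with a wild type ENL peak the share was 31.3%.

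Promoter sequence was not used by the rule. Promoters of 300 bases, from 250 before to 50 after a start, were available for 1511 genes with a kept site, and 14 motifs were searched on both strands. Promoters were counted by gene, so a sequence shared between genes, as at ASDURF and ASNSD1, entered more than once. The intervals make no allowance for this and are too narrow to that degree. CCAATCA, the NFY box, was present in 15.5% (13.8 to 17.4) of promoters of kept sites and in 8.7% of all 15842 promoters. It was in 11.6% of promoters of lost sites and 16.3% of those of sites in all 5 lists. In promoters with H3K9ac but no wild type ENL it was in 6.87%. The difference of kept sites from the latter was 8.62 points (6.72 to 10.7), and it stayed above 0 when the interval was widened for all 42 motif differences (5.54 to 12.1). The difference from lost sites was 3.87 points (1.26 to 6.43), and the widened interval held 0 (−0.485 to 8.09). Within strength groups that difference was 2.83, 5.13, 2.06 and −0.230 points from weakest to strongest. The match had a median position of −116 in promoters of kept sites, against −84 in those of lost sites and −85 in all promoters, and a median of 89.5 bp from the wild type summit.

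GCATGCGC, the NRF1 element, was in 9.07% of promoters of kept sites and in 4.26% of all promoters. It was in 5.64% of promoters of lost sites, a difference of 3.43 points. The widened interval (0.0853 to 6.66) lay just above 0 and makes no allowance for sequences counted more than once. Within strength groups the difference from lost sites was −1.28, 9.43, 2.79 and 4.63 points, and only the interval of the second held no 0. Against H3K9ac promoters without wild type ENL, at 5.73%, the difference was 3.34 points (widened interval 0.890 to 6.21). Against sites in all 5 lists, at 6.65%, it was 2.41 points, and the interval held 0 (−0.294 to 4.77, widened −2.31 to 6.19). CTCGCGAG, the ZBTB33 palindrome, was in 3.84% of promoters of kept sites, 3.96% of lost and 1.53% of all. Against H3K9ac promoters without wild type ENL, at 1.82%, the difference was 2.02 points (widened interval 0.509 to 4.04), and against lost sites it was −0.118 points (−1.65 to 1.34). From sites in all 5 lists, at 1.40%, the difference was 2.44 points (0.847 to 3.73, widened −0.550 to 4.59).

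No widened interval left out 0 for the other motifs. CCGGAAGT, the ETS core, was in 9.99% of promoters of kept and 12.9% of lost sites (difference −2.89 points, −5.35 to −0.478) and in 6.19% of all, and CACGTG, the E-box of USF and MYC family proteins, was in 9.66% and 12.2% (difference −2.54 points, −4.97 to −0.183) and in 8.88% of all. Within strength groups the ETS difference was 1.66, −6.83, −0.481 and 4.88 points and the E-box difference −9.14, −1.18, −1.17 and 0.809 points. GGGGCGGGG, the SP and KLF box, was in 31.9% of promoters of kept sites, 29.8% of lost, 37.3% of sites in all 5 lists and 22.4% of all. Its difference from sites in all 5 lists was −5.40 points (−10.1 to −0.854, widened −13.1 to 2.04). From H3K9ac promoters without wild type ENL, at 27.6%, it was 4.29 points (1.64 to 7.003, widened −0.0533 to 8.80). AAGATGGCG, the YY1 element, was in 5.10% of promoters of kept sites and 2.74% of all. TGACGT, the core of the cAMP response element, was in 13.6% and 9.67%, and the full TGACGTCA, whose matches all contain that core, was in 3.24% and 2.59%. TATAAA was in 4.37% of promoters of kept sites and 9.63% of all, and TGANTCA, the AP-1 site, in 3.77% and 5.75%. The liver factor motifs were rare: GTTAATNAT of HNF1 was in 0.265%, TTGCGCAA of C/EBP in 0.132% and CAAAGTCCA of HNF4 in 0.132%, against 0.543%, 0.177% and 0.316% of all. Of the 42 differences, 11 had a 95% interval without 0 and 4 a widened interval without 0.

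**Figure D5:**
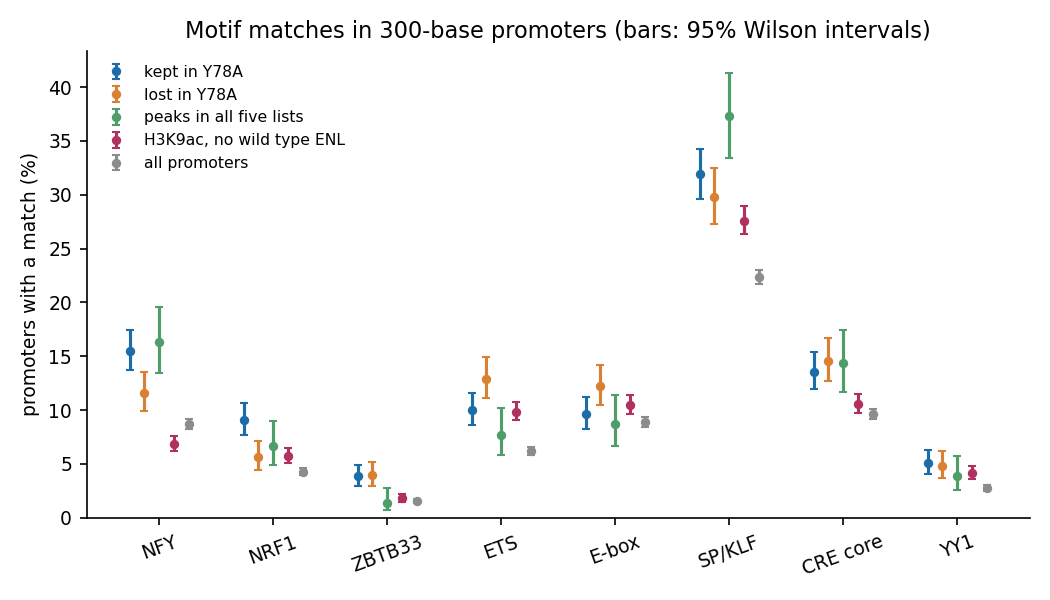
Share of 300-base promoters with a match (y axis, percent) for 8 of the motifs, with 95% Wilson intervals, in promoters of kept sites, of lost sites, of sites in all 5 lists, with H3K9ac but no wild type ENL, and in all promoters. The NFY box stands at 15.5% in promoters of kept sites and 6.87% in H3K9ac promoters without wild type ENL.

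The promoters of kept sites were rich in CpG. The ratio of observed to expected CpG had a median of 0.873 and was at least 0.6 in 94.4% of them. This share was 93.6% at lost sites (difference 0.772 points, −1.02 to 2.64), 83.4% in H3K9ac promoters without wild type ENL (difference 11.02 points, 9.37 to 12.6) and 65.8% of all promoters. The motifs that contain CpG occur more often in such sequence by composition alone, and the part of composition in their shares was not tested. CCAATCA contains no CpG, and the part of composition in its share was not tested either.

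Many of these promoters were divergent. A start of another coding gene on the opposite strand lay within 1 kb at 26.1% of promoters of kept sites and 24.1% of those of lost sites (difference 2.001 points, −1.31 to 5.27). It lay there at 12.2% of H3K9ac promoters without wild type ENL (difference 13.9 points, 11.5 to 16.3) and 11.3% of all.

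Kept and lost sites meet at the edge of a Y78A peak. Just inside the rule were the sites nearest to ITGA6, RELCH and LDHA, whose Y78A overlaps were 11, 11 and 14 bp, with wild type folds of 3.54, 4.91 and 4.15. Just outside were those nearest to SLC25A16, TRIB3 and STX16, whose gaps to a Y78A peak were 5, 22 and 39 bp, with wild type folds of 5.15, 2.77 and 3.70. Few sites sat near this edge: 19 kept sites (0.816%) had a Y78A overlap of at most 100 bp, and 68 lost sites (3.57%) had a Y78A peak within 1000 bp.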

How the data were processed

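Peak lists of 5 CUT&Tag libraries were used, 1 per group, with groups taken from the titles. Per the submitters' processing notes, the authors used hg38 with Bowtie2, MACS2, FastQC and deepTools, of unstated version; control, duplicate handling and depth are not given. The deposited fold is a ratio of summit signal to background. The deposited values for p and q are on a −log10 scale. The deposited score was used in no comparison. The lists were cut by the authors at different q thresholds, and a longer list overlaps more. Whole summit fragments were recovered from the deposited fold and p for at least 99.98% of peaks, within a relative tolerance of 3e-05.

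A site counted as shared at 1 bp of overlap. Distances ran from the wild type summit to the nearest RefSeq transcript start (GRCh38.p14). Strand was given for 15842 of 20037 coding genes, and both ends were used for the others. Shares have Wilson and differences Newcombe 95% intervals, and motif differences also have intervals widened over all 42. Promoters were counted by gene, and the motif, CpG and divergent promoter intervals do not allow for sequences shared between genes. Sites of 1 library are not replicates, so no test across samples was run. The members, the gene lists and the motifs were chosen with earlier results of these data known. Genes were named by rank: at coding gene starts, the 10 highest wild type −log10 p and the 6 highest Y78A folds, the 4 genes with most kept sites, the 6 strongest sites over 10 kb from a coding gene start, and up to 4 of each of the 14 lists, of which some are not reported here. Further members were named after their values were seen. Python 3.11.15, pandas 2.3.3 and scipy 1.17.1 were used, and overlaps and fragment recovery were tested on simulated data.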

Additional observations from a re-analysis of the deposited data

Results flagged for a closer look

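Of the 639 wild type ENL peaks on unplaced and alternate contigs, which the rule leaves out, 93 (14.6%, 12.03 to 17.5) met the same overlaps with H3K9bhb, H3K9ac and ENL_Y78A and had no H3K9cr peak. They are a signal in data that no comparison above used.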

How the results depend on the processing

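Of 67 alternatives, 49 kept the call, moved less than the interval or, for counts of sites and genes, stayed within a fold limit. In 5 of these the sign changed while the interval held 0 in both cases. They were the share at gene starts minus lost sites, at −0.209 points with 50% overlap and −9.60 and −1.92 in the weaker strength groups, and the lncRNA share minus lost sites, at −2.27 and −1.11 in the same groups. With each list limited to the 3852 strongest peaks, the length of the shortest list, there were 258 kept sites (6.70% of wild type peaks), the median distance between the ENL summits was 46 bp, and 235 genes had a kept site. Under that setting the share at gene starts was lower at kept than at lost sites, by −16.6 points (−23.3 to −8.69), where the lists as deposited gave 0.669. The cause was not tested. The share of wild type peaks was 19.7% when the overlap had to cover 50% of the shorter peak and 21.3% with a −log10 q of at least 3 in all lists. In an unplanned setting with genes of given strand only, 1551 genes had a kept site. The share at gene starts then differed by 1.97 points (−1.02 to 4.97) from lost sites. From sites in all 5 lists it differed by 22.3 points (19.1 to 25.5). For the summit past the start, an alternative chosen after seeing the data, the differences within strength groups were 13.0, −3.29, −0.335 and −3.85 points against lost sites and −3.30, 19.4, 1.56 and 2.66 points against sites in all 5 lists. Likewise, for sites inside a coding gene they were −11.1, −5.78 and −6.42 points in groups where the call was lost. All 14 motif shares stayed inside their intervals when summits had to lie within 500 bp. No paired analysis was possible because each group had a single library. With 1 library per group, variation between cultures is unknown, and a lost site is one without a called Y78A peak, not one shown to lack the mutant protein.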

Other observations

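Kept sites were found on each of the 24 chromosomes used. Their share of the wild type ENL peaks of a chromosome ran from 16.2% (12.9 to 20.2) on chromosome 8 to 24.2% (21.2 to 27.5) on chromosome 17. The tRNA genes with a kept site included TRN-GTT2-3, which decodes asparagine, with folds of 7.33 in wild type, 6.82 in Y78A, 6.86 in H3K9bhb and 6.79 in H3K9ac. TRI-TAT2-1, which decodes isoleucine, had 5.17, 5.27, 5.63 and 3.79, and TRH-GTG1-7, which decodes histidine, had 4.60, 4.90, 4.02 and 3.23.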
